A study of Homo sapiens with 24 samples.

Results

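The 35 genes described here encode aminoacyl-tRNA synthetases, 19 of the cytosol and 16 of the mitochondrion. They were taken by gene symbol from a table of 60666 genes, where each symbol matched a single Ensembl gene ID, and all 35 were abundant enough to be tested. The counts came from RNA sequencing of 2 human lung cancer cell lines, H460 and A549, each transfected with an siRNA against RICTOR (siRIC, labelled Rictor knockdown) or with a control siRNA (siNT, labelled wild type). From each transfection, RNA was taken from the polysomal fractions of a gradient and from the input, called total RNA. This gave 8 groups of 3 libraries, namely H460 siRIC, H460 siNT, A549 siRIC and A549 siNT, each as polysomal and as total RNA. Both lines are established lines grown in RPMI medium with fetal bovine serum, and the sources used here do not state the dose or duration of the siRNA. The comparisons ask whether RICTOR depletion changes the level of these mRNAs or their share in polysomes, how the share in polysomes differs among them, and how the lines differ.

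Each aminoacyl-tRNA synthetase joins an amino acid to the tRNAs that carry its anticodons, which is the step that sets the genetic code in every round of protein synthesis. Human cells keep a cytosolic set and a separate mitochondrial set, both encoded in the nucleus, and the mitochondrial enzymes serve the few proteins made inside the organelle. Several cytosolic enzymes sit in a multi-synthetase complex held together by the scaffold proteins AIMP1, AIMP2 and EEF1E1. GARS1 and KARS1 each give a cytosolic and a mitochondrial enzyme from a single gene, and EPRS1 joins glutamyl- and prolyl-tRNA synthetase in a single chain. The transcription factor ATF4, made when amino acids run short, induces many of the cytosolic genes. RICTOR is a defining subunit of mTORC2, a kinase complex that acts on AKT. An mRNA bound by several ribosomes at a time travels in polysomes, so its polysomal-to-total ratio is read as a measure of how heavily it is translated.

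Libraries held 19087204 to 26550160 estimated counts. The synthetases took 0.491% to 0.687% of them in H460 polysomal RNA, 0.380% to 0.518% in H460 total RNA, 0.370% to 0.458% in A549 polysomal RNA and 0.291% to 0.378% in A549 total RNA. Levels are given as CPM, counts relative to the library total after TMM scaling. RICTOR had 5.65, 7.23 and 6.38 CPM in H460 siRIC total RNA against 18.7, 19.0 and 17.9 CPM with siNT, and 12.4, 9.97 and 12.6 CPM in A549 siRIC total RNA against 31.5, 26.1 and 33.8 CPM with siNT. In polysomal RNA it had 3.38, 3.70 and 5.48 CPM against 12.2, 10.5 and 24.2 CPM in H460, and 12.03, 4.96 and 8.71 CPM against 25.4, 19.97 and 27.3 CPM in A549, so siRIC and siNT values overlapped in neither line nor fraction. The log2 differences were −1.90 ± 0.31 in H460 polysomal, −1.52 ± 0.30 in H460 total, −1.49 ± 0.23 in A549 polysomal and −1.38 ± 0.23 in A549 total RNA, with adjusted p of 0.620, 1, 0.00700 and 0.0159 by edgeR's quasi-likelihood test with Benjamini-Hochberg adjustment. The epithelial keratins KRT8 and KRT18 were at 588 CPM or more in every library, while KRT19 ran from 0.095 to 2454 CPM. EPCAM reached at most 7.44 CPM, and CDH1 was at 0 in all 12 H460 libraries. Of 9 markers of other cell types, CD3E and CDH5 were at 0 throughout, PTPRC, PECAM1 and COL1A2 reached at most 0.100 CPM, and CD68, COL1A1, DCN and LUM reached 120, 11.2, 17.6 and 137 CPM. The libraries that stood apart from their group were replicate 3 of both H460 polysomal groups and replicate 1 of A549 siRIC polysomal RNA. Chi-square per degree of freedom between replicates was 137 to 200 for H460 pairs with replicate 3 and 57.2 to 58.2 for the other H460 polysomal pairs, and it was 90.2 and 112 for pairs with the A549 library and 39.0 for the pair without it. Counts of called synthetases that change without these libraries are given both ways.

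RICTOR depletion was followed by no called change in any synthetase mRNA, in either line or fraction. With edgeR's quasi-likelihood test and Benjamini-Hochberg adjustment, 0 of 35 synthetases passed an adjusted p of 0.05 in H460 polysomal RNA, H460 total RNA, A549 polysomal RNA and A549 total RNA, where 0%, 0%, 0.676% and 0.325% of all genes tested passed. DESeq2 called 0 in each as well. At an unadjusted p under 0.05 there were 0 in the first 3 of these comparisons and 1 in A549 total RNA, where the shares of all genes were 1.73%, 1.14%, 12.5% and 6.81%. In each of these 4 comparisons, the 95% interval of the log2 difference lay within 1 of 0 (a 2-fold change) for 35 of 35. In H460 the bounds reached −0.71 and 0.93 in polysomal and −0.71 and 0.89 in total RNA. Those in A549 reached −0.64 and 0.81 in polysomal and −0.55 and 0.65 in total RNA. The same test did not call RICTOR itself in either H460 fraction, so 0 calls there cannot exclude a change. The differences ran from −0.32 to 0.31 in H460 polysomal RNA, −0.33 to 0.21 in H460 total RNA, −0.28 to 0.33 in A549 polysomal RNA and −0.15 to 0.29 in A549 total RNA.

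In H460 cells, the mRNA of WARS1, the cytosolic tryptophanyl-tRNA synthetase, lay lowest relative to the control. WARS1 had 550, 387 and 445 CPM in siRIC total RNA, against 647, 480 and 618 CPM in siNT total RNA. In polysomal RNA it had 659, 489 and 525 CPM with siRIC, against 738, 647 and 708 CPM with siNT. Each siRIC value lay below the siNT value of the same replicate number, but the groups overlapped in both fractions. The log2 differences were −0.32 ± 0.18 in polysomal and −0.33 ± 0.18 in total RNA (SE, n = 3 each), with unadjusted p of 0.0955 and 0.0882 and an edgeR adjusted p of 1 in both. The response of WARS1 in total RNA differed by −0.38 ± 0.24 log2, H460 minus A549, with a 95% interval from −0.88 to 0.12. NARS2 and TARS1 followed in H460 total RNA with 0.14 ± 0.16 and 0.20 ± 0.22, and PARS2 and VARS2 in H460 polysomal RNA with 0.31 ± 0.26 and 0.25 ± 0.27.

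In A549 cells, the smallest p in total RNA belonged to YARS2, the mitochondrial tyrosyl-tRNA synthetase. YARS2 had 29.5, 27.8 and 28.8 CPM in siRIC total RNA, against 23.5, 23.4 and 23.7 CPM in siNT total RNA. FARS2, the mitochondrial phenylalanyl-tRNA synthetase, had 9.56, 10.8 and 10.8 CPM with siRIC and 8.61, 8.59 and 9.36 CPM with siNT. In both, every siRIC library lay above every siNT library. The log2 difference of YARS2 was 0.29 ± 0.14 (SE, n = 3 each), with an unadjusted p of 0.0485 and an edgeR adjusted p of 0.723, and those of FARS2 and LARS2 were 0.24 ± 0.17 and 0.25 ± 0.18. In H460 total RNA the difference of YARS2 was 0.07, and that of FARS2 was −0.05. In A549 polysomal RNA, SARS1, the cytosolic seryl-tRNA synthetase, had 86.8, 106 and 108 CPM with siRIC, against 122, 123 and 116 CPM with siNT. The groups did not overlap, and the log2 difference was −0.26 ± 0.13 with an edgeR adjusted p of 0.434. HARS2 lay at −0.24 ± 0.13 and SARS2 at 0.25 ± 0.14 in the same fraction.

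The valyl-tRNA synthetase VARS1 depended on a single library. It had 98.7, 208 and 248 CPM in A549 siRIC polysomal RNA, against 126, 163 and 155 CPM in A549 siNT polysomal RNA. The replicate 1 library, which stood apart, was the lowest of all, and the other siRIC libraries were above every siNT library. The log2 difference was 0.33 ± 0.23 with an edgeR adjusted p of 0.586, and without that library it was 0.64 with an adjusted p of 0.0223, so VARS1 was then called higher, as were 1.68% of all genes.

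Few synthetases had siRIC and siNT libraries that did not overlap, and they are given here beside the shares of all genes. In H460 total RNA, RARS2 and TARS2 did not overlap and were higher, 2 of 35, where the shares of all genes without overlap were 7.32% (higher) and 6.12% (lower). No synthetase did so in H460 polysomal RNA, where these shares were 1.43% and 1.85%. SARS1 and HARS2 were lower in A549 polysomal RNA, with shares of 5.47% for higher and 6.90% for lower genes. FARS2 and YARS2 were higher in A549 total RNA, with shares of 7.77% and 9.17%.

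The polysomal-to-total ratio did not pass the test of a response to siRIC for any synthetase. By edgeR's quasi-likelihood test 0 of 35 passed in H460 and 0 of 35 in A549, at background shares of 0% and 0%. At an unadjusted p under 0.05 there were 0 in both (0.610% of all genes in H460 and 1.15% in A549), and DESeq2 called 0. In H460 the ratio differences ran from −0.18 to 0.25 log2 and 32 of the 35 intervals lay within 1 of 0, with YARS2 at −0.18 ± 0.23, FARS2 at 0.18 ± 0.24 and PARS2 at 0.25 ± 0.36 (SE). In A549 they ran from −0.33 to 0.21 and 35 of 35 intervals lay within 1, with HARS2 at −0.33 ± 0.18, YARS2 at −0.29 ± 0.19 and FARSB at −0.33 ± 0.24. The median ratio difference of the cytosolic enzymes was −0.01 in H460 and −0.14 in A549, that of the mitochondrial enzymes 0.01 and −0.01, and that of all genes 0.00 and 0.02. The difference between H460 and A549 in the response to siRIC was called for 0 synthetases in polysomal RNA (background 0.00606%) and 0 in total RNA (background 0%), with 0 with DESeq2 in each. At an unadjusted p under 0.05 there were also 0 in each, where 3.50% of all genes passed in polysomal and 2.31% in total RNA. The members with the smallest p there were SARS1, YARS1 and FARSB in polysomal RNA, at 0.48 ± 0.36, 0.34 ± 0.22 and 0.27 ± 0.22, and in total RNA, after WARS1, FARS2 and YARS2 at −0.29 ± 0.23 and −0.22 ± 0.20.

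**Figure D1:**
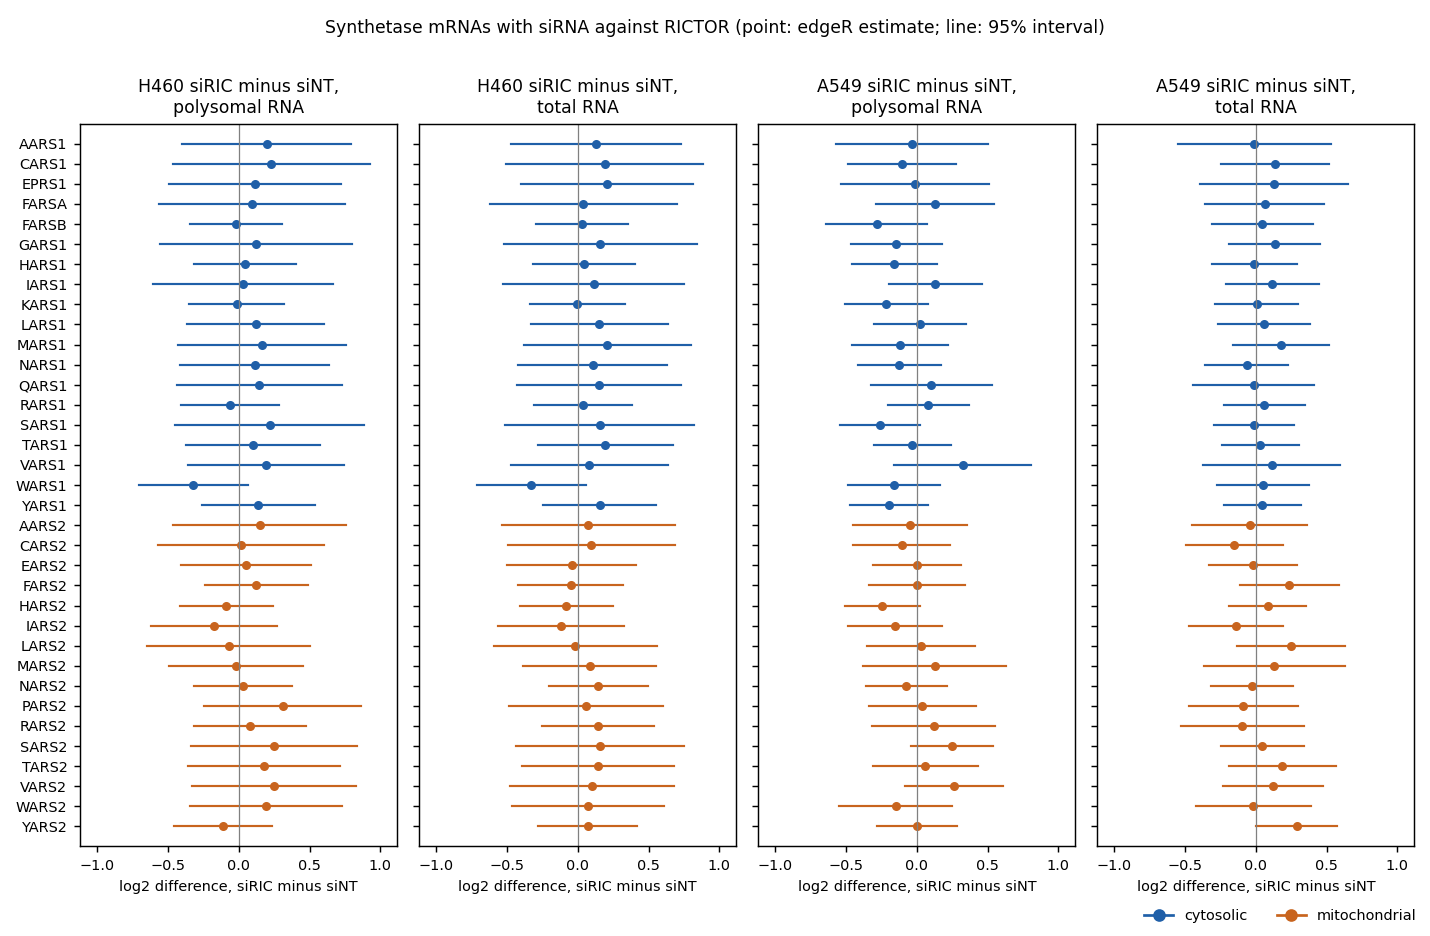
Log2 difference of each synthetase mRNA, siRIC minus siNT (horizontal axis), in H460 polysomal, H460 total, A549 polysomal and A549 total RNA, with cytosolic enzymes in blue and mitochondrial enzymes in orange. Points are edgeR estimates and lines their 95% intervals (3 libraries a group); all intervals lie within 1 of 0, and the interval of YARS2 in A549 total RNA starts at 0.00.

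The dual-compartment, bifunctional and histidyl genes gave small differences with siRIC. GARS1, KARS1 and EPRS1 differed between siRIC and siNT by 0.12, −0.02 and 0.11 log2 in H460 polysomal RNA and by 0.16, 0.00 and 0.21 in H460 total RNA. In A549 they differed by −0.14, −0.22 and −0.01 in polysomal RNA and by 0.13, 0.01 and 0.13 in total RNA. The histidyl pair HARS1 and HARS2 differed by 0.04 and −0.09 in H460 polysomal, 0.04 and −0.08 in H460 total, −0.16 and −0.24 in A549 polysomal and −0.01 and 0.08 in A549 total RNA. Among 25 genes of the ATF4 pathway the only call was CHAC1, a glutathione-degrading enzyme, in A549 polysomal RNA. CHAC1 had 30.5, 38.5 and 45.5 CPM with siRIC there, against 22.1, 16.9 and 25.0 CPM with siNT, a log2 difference of 0.85 ± 0.18 with an edgeR adjusted p of 0.0422.

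Many synthetase mRNAs were more abundant in polysomal than in total RNA, and none was called lower in the reported fits, while MARS2, EPRS1 and QARS1 were in some alternatives described below. By edgeR's quasi-likelihood test with Benjamini-Hochberg adjustment, 11 of 35 were called higher in polysomal RNA in H460 siRIC cells, where all genes were 13.1% higher and 10.6% lower. In H460 siNT cells 12 were called higher (all genes 12.5% higher and 10.5% lower), in A549 siRIC cells 14 (21.2% higher, 21.0% lower) and in A549 siNT cells 19 (18.3% higher, 18.8% lower). Both compartments took part, with 6, 6, 7 and 10 of the 19 cytosolic and 5, 6, 7 and 9 of the 16 mitochondrial enzymes in the same order of groups. At an unadjusted p under 0.05 MARS2 alone was lower in each H460 group, where 17.1% and 17.1% of all genes were, and no synthetase was lower in A549 siRIC or siNT cells. DESeq2 called 0 lower in each group. The genes tested were not limited to protein-coding ones, so the shares of all genes are not those of other mRNAs alone. The median log2 difference of the cytosolic enzymes was 0.54, 0.54, 0.23 and 0.42, that of the mitochondrial enzymes 0.44, 0.48, 0.41 and 0.50, and that of all genes −0.02, −0.02, −0.03 and −0.04. Transcripts of the mitochondrial genome took 2.04% to 4.18% of the polysomal and 13.5% to 18.0% of the total libraries; their part in these differences was not tested beyond the scaling by TMM.

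In all 4 of these comparisons 9 synthetases were called higher, 5 cytosolic (FARSA, HARS1, RARS1, TARS1 and VARS1) and 4 mitochondrial (FARS2, IARS2, SARS2 and YARS2). FARSA, the catalytic alpha subunit of the cytosolic phenylalanyl-tRNA synthetase (ENSG00000179115, chr19:12922479-12933711), had 219, 235 and 110 CPM in H460 siRIC polysomal RNA, against 71.3, 76.9 and 67.4 CPM in total RNA. In H460 siNT cells it had 197, 234 and 102 CPM in polysomal RNA, against 74.5, 72.5 and 64.2 CPM in total RNA. In A549 siRIC cells it had 123, 219 and 179 CPM against 56.6, 69.9 and 63.1 CPM, and in A549 siNT cells 134, 197 and 147 CPM against 55.8, 69.5 and 56.8 CPM. Polysomal libraries lay above total libraries in every group, and replicate 3 was the lowest polysomal library in both H460 groups. The log2 differences were 1.37 ± 0.31, 1.32 ± 0.31, 1.48 ± 0.20 and 1.41 ± 0.20 (SE, n = 3 each), with edgeR adjusted p of 0.00797, 0.00948, 4.15e-05 and 9.69e-05. Its partner FARSB, the beta subunit of the same enzyme, lay at 0.34 ± 0.15, 0.39 ± 0.15, −0.04 ± 0.17 and 0.29 ± 0.17 and was called in none; the difference between the subunits was not tested.

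SARS2, the mitochondrial seryl-tRNA synthetase (ENSG00000104835, chr19:38915266-38930763), was the mitochondrial counterpart with the largest difference in A549. It had 60.1, 54.5 and 29.6 CPM in H460 siRIC polysomal RNA, against 25.3, 21.3 and 19.9 CPM in total RNA. With siNT it had 44.1, 50.7 and 27.3 CPM in H460 polysomal RNA, against 22.6, 18.0 and 19.6 CPM in total RNA. In A549 it had 96.9, 131 and 120 CPM against 46.8, 44.7 and 43.7 CPM with siRIC, and 89.3, 110 and 95.6 CPM against 43.6, 44.0 and 43.8 CPM with siNT. The fractions overlapped in none of the 4 groups, and replicate 3 of the H460 polysomal libraries was again nearest to total RNA. The log2 differences were 1.10 ± 0.27 and 1.01 ± 0.28 in H460 siRIC and siNT cells, and 1.38 ± 0.14 and 1.18 ± 0.14 in A549 siRIC and siNT cells, with edgeR adjusted p of 0.0133, 0.0201, 3.33e-06 and 2.13e-05.

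RARS1, the cytosolic arginyl-tRNA synthetase of the multi-synthetase complex (ENSG00000113643, chr5:168486471-168519301), had 227, 242 and 236 CPM in H460 siNT polysomal RNA, against 88.7, 101 and 88.8 CPM in total RNA. In A549 siNT cells it had 153, 168 and 140 CPM in polysomal RNA, against 88.0, 97.2 and 84.5 CPM in total RNA. Its replicates were close together in both fractions, replicate 3 of H460 included, and its log2 difference was 1.33 ± 0.16 in H460 and 0.79 ± 0.14 in A549, with edgeR adjusted p of 0.000318 and 0.000372. FARS2 (ENSG00000145982, chr6:5249934-5771583) had 16.9, 19.7 and 15.7 CPM in H460 siNT polysomal RNA, against 8.76, 7.68 and 8.55 CPM in total RNA. With siNT it had 18.4, 18.4 and 15.9 CPM in A549 polysomal RNA, against 8.61, 8.59 and 9.36 CPM in total RNA. No polysomal value overlapped a total value, and the log2 differences were 1.05 ± 0.17 in H460 and 1.01 ± 0.16 in A549, with edgeR adjusted p of 0.00133 and 0.000251. Other large differences in siNT cells were those of HARS1 (0.89 ± 0.17) and RARS2 (0.77 ± 0.18) in H460 and of VARS1 (0.83 ± 0.23) and VARS2, the mitochondrial valyl enzyme (0.84 ± 0.17), in A549, with edgeR adjusted p of 0.00292, 0.0107, 0.00991 and 0.00109.

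At the other end of the range, MARS2 had the lowest polysomal difference of the 35 in both H460 groups, EPRS1 in A549 siRIC cells and QARS1 in A549 siNT cells. In H460, LARS2 and PARS2, the mitochondrial leucyl and prolyl enzymes, came next to MARS2, at −0.05 and 0.01 with siRIC and at 0.00 and −0.25 with siNT. MARS2, the mitochondrial methionyl-tRNA synthetase (ENSG00000247626, chr2:197705369-197708395), had 12.3, 13.8 and 20.8 CPM in H460 siRIC polysomal RNA, against 23.0, 25.0 and 21.9 CPM in total RNA. In H460 siNT cells it had 13.2, 16.3 and 18.2 CPM in polysomal RNA, against 21.8, 22.4 and 22.1 CPM in total RNA. Every polysomal library lay below every total library in H460. The log2 differences were −0.59 ± 0.22 and −0.48 ± 0.22 with edgeR adjusted p of 0.0685 and 0.131, and in A549 siRIC and siNT cells they were −0.11 ± 0.24 and −0.10 ± 0.24. QARS1, the glutaminyl-tRNA synthetase, lay at 0.29 ± 0.27 and 0.30 ± 0.27 in H460 and at −0.25 ± 0.20 and −0.36 ± 0.20 in A549. In pairs of H460 siRIC libraries its log2 polysomal-to-total ratio was 0.59 and 0.36 in replicates 1 and 2. In replicate 3, whose polysomal library stood apart, it was −0.20. With siNT these ratios were 0.41 and 0.66, against −0.30 in replicate 3. EPRS1 (ENSG00000136628, chr1:219968600-220046505) had 287, 265 and 514 CPM in H460 siNT polysomal RNA, against 241, 233 and 275 CPM in total RNA. With siNT it had 98.2, 85.7 and 108 CPM in A549 polysomal RNA, against 115, 90.7 and 143 CPM in total RNA. Its fractions overlapped in both lines, with log2 differences of 0.51 ± 0.28 in H460 and −0.24 ± 0.25 in A549.

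The number of calls in these comparisons moved with single libraries and with pairing. With the replicate number as a block, 20 synthetases were called higher and MARS2 lower in H460 siRIC cells, and 22 higher in H460 siNT cells. Over all genes, the shares with the block were 18.7% higher and 17.9% lower with siRIC, and 17.8% higher and 17.7% lower with siNT. Without the libraries that stood apart, 18 were higher and MARS2 lower in each of the H460 groups, where all genes were 25.9% higher and 24.5% lower with siRIC, and 24.5% higher and 22.7% lower with siNT. In A549, EPRS1 was called lower in siRIC cells with the block (−0.39, edgeR adjusted p = 0.0199), where 25.3% of all genes were lower. QARS1 was called lower in A549 siNT cells without the library that stood apart (−0.35, edgeR adjusted p = 0.0391; 21.7% of all genes lower) and with only the groups compared (−0.34, adjusted p = 0.0321). Without A549 siRIC polysomal replicate 3, EPRS1 and QARS1 were both called lower in siRIC cells, at −0.68 and −0.52. The count for H460 siRIC cells was 7, 4 and 4 without total replicate 1, 2 and 3, 6 without polysomal replicate 1 and 18 without siNT polysomal replicate 3. The count for H460 siNT cells was 7, 7 and 5 without total replicate 1, 2 and 3, and that for A549 siRIC cells was 9 and 7 without total replicate 1 and 2.

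Libraries of the same line, siRNA and replicate number were also paired to give 12 polysomal-to-total ratios per gene. The median log2 ratio of the cytosolic enzymes was above 0 in 12 of 12 such pairs, from 0.07 to 0.67, and that of the mitochondrial enzymes in 12 of 12, from 0.28 to 0.51. The median over all genes lay between −0.04 and 0.00. The cytosolic median averaged 0.56 ± 0.10 in H460 siRIC and 0.59 ± 0.08 in H460 siNT cells, and 0.24 ± 0.14 in A549 siRIC and 0.41 ± 0.18 in A549 siNT cells (SD, n = 3). For the mitochondrial enzymes these means were 0.40 ± 0.09, 0.41 ± 0.11, 0.33 ± 0.08 and 0.47 ± 0.06. The cytosolic median exceeded the mitochondrial one in 7 of 12 pairs, with differences from −0.22 to 0.38. It did so in 5 of 6 H460 pairs and in 2 of 6 A549 pairs, and the largest differences, 0.33 and 0.38, were those of the H460 replicate 3 pairs. The ratio was above 0 in all 12 pairs for 11 of 19 cytosolic and 5 of 16 mitochondrial enzymes, against 14.3% of all genes.

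Individual enzymes differed in the polysomal-to-total ratio. FARSA ranged from 0.67 to 1.69, with both replicate 3 pairs of H460 lowest, SARS2 from 0.48 to 1.55 and RARS1 from 0.66 to 1.41. MARS2 was above 0 in 1 of 12 pairs and averaged −0.35, while QARS1 and LARS2 were above 0 in 5. The ratios of EPRS1 were 0.17, 0.11 and 0.86 in H460 siRIC and 0.25, 0.19 and 0.90 in H460 siNT cells. In A549 they were −0.51, −0.43 and −0.30 in siRIC and −0.23, −0.08 and −0.41 in siNT cells. All 6 H460 values of EPRS1 lay above all 6 A549 values, and both replicate 3 values of H460 were far above the other H460 values. RARS1 and TARS1 also had no overlap between lines, with lowest H460 values of 1.07 and 0.53 and highest A549 values of 0.97 and 0.49. The share of all genes without such overlap was not computed.

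**Figure D2:**
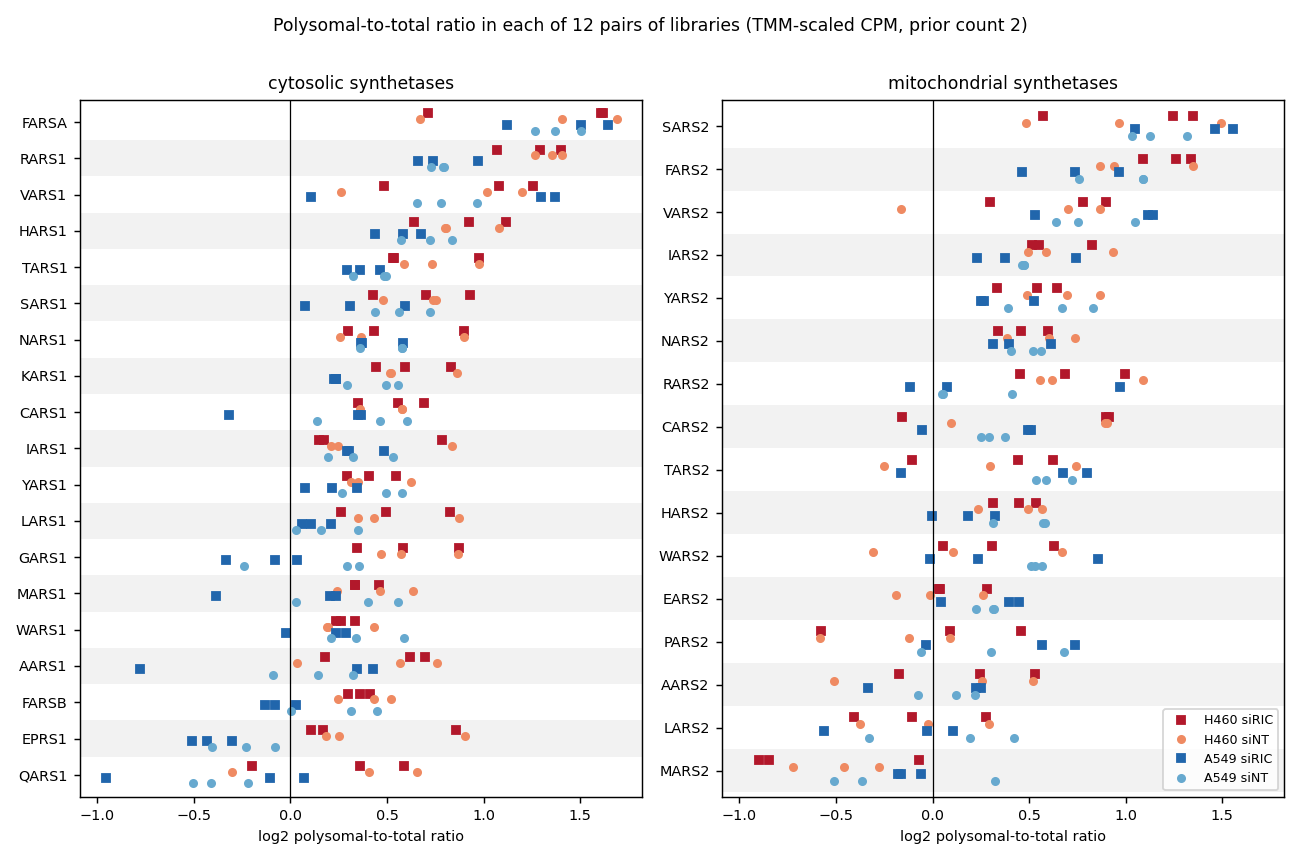
Log2 polysomal-to-total ratio (horizontal axis) of each cytosolic (left) and mitochondrial (right) synthetase in the 12 pairs of libraries, sorted by the mean, with H460 in red and orange and A549 in dark and light blue, squares for siRIC and circles for siNT. FARSA and SARS2 have the highest means and QARS1 and MARS2 the lowest.

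The share in polysomes did not separate the lines by the test. In siNT cells, 0 of 35 synthetases were called by edgeR's quasi-likelihood test for a ratio difference between H460 and A549, with a background of 0%, and 0 with DESeq2. At an unadjusted p under 0.05 there were 2, against 4.99% of all genes. Those 2 were the arginyl pair, cytosolic RARS1 at 0.57 ± 0.19 and mitochondrial RARS2 at 0.61 ± 0.28 log2, and EPRS1 lay at 0.77 ± 0.41. Without the libraries that stood apart, QARS1 (0.94, adjusted p = 0.0377) and CARS2 were called higher in H460, where 0.446% of all genes were.

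Other genes of tRNA charging gave a mixed picture of the polysomal share. Of all genes, 13.1%, 12.5%, 21.2% and 18.3% were called higher in H460 siRIC, H460 siNT, A549 siRIC and A549 siNT cells. In the same order 10.6%, 10.5%, 21.0% and 18.8% were called lower. Of the 3 scaffold genes of the multi-synthetase complex, 3 were called higher in polysomal than in total RNA in H460 siRIC, 3 in H460 siNT, 2 in A549 siRIC and 2 in A549 siNT cells, with AIMP1 at 0.89, 0.93, 0.87 and 0.72 log2. Of the 7 enzymes of that complex, 2, 2, 1 and 2 were called higher. AARSD1, which removes serine wrongly joined to alanine tRNA, was higher in all 4 (1.21, 1.26, 1.24 and 1.09), while DTD2, a deacylase of the same group of 3, was lower in all 4 (−0.89, −0.74, −0.60 and −0.81). Of 8 mitochondrial translation factors, 4, 4, 4 and 3 were higher, led by the elongation factor TUFM at 1.47, 1.45, 1.53 and 1.38. In each A549 group 1 of the 8 was called lower. Of the 4 genes that amidate or formylate mitochondrial tRNA, GATB was higher in all 4 groups (0.87, 0.87, 0.92 and 1.01), and 1 was called lower in A549 siRIC cells.

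Between the lines, 17 of 35 synthetases differed in total RNA of siNT cells. By edgeR's quasi-likelihood test with Benjamini-Hochberg adjustment, 14 were higher in H460 than in A549 and 3 lower, 8 cytosolic and 6 mitochondrial genes among the higher ones and SARS2, PARS2 and NARS2 the lower ones, at a background of 26.2% higher and 28.9% lower. Without the libraries that stood apart, 18 were higher and 4 lower, where 31.8% of all genes were higher and 34.1% lower. Each line is a single cell line, so the difference is between these 2 lines and between the sets of libraries made from them. In bulk RNA, a lower level from fewer expressing cells cannot be told apart from less RNA per cell.

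WARS1 (ENSG00000140105, chr14:100333790-100376327) showed the largest difference. It had 647, 480 and 618 CPM in H460 siNT total RNA, against 87.4, 98.7 and 94.3 CPM in A549 siNT total RNA, and 550, 387 and 445 CPM in H460 siRIC, against 92.2, 98.0 and 99.6 CPM in A549 siRIC total RNA. The lowest H460 library lay far above the highest A549 library. The siNT difference was 6.22-fold, or 2.64 ± 0.18 log2 (SE, n = 3 each), with an edgeR adjusted p of 1.97e-11. Its mitochondrial counterpart WARS2 had 11.1, 10.7 and 11.3 CPM in H460, against 7.42, 7.17 and 7.18 CPM in A549, a log2 difference of 0.60 ± 0.22 with an edgeR adjusted p of 0.0231.

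The seryl pair moved in opposite directions. Cytosolic SARS1 (ENSG00000031698, chr1:109213893-109238182) had 238, 160 and 246 CPM in H460 siNT total RNA, against 82.3, 74.7 and 85.3 CPM in A549. Mitochondrial SARS2 had 22.6, 18.0 and 19.6 CPM in H460, against 43.6, 44.0 and 43.8 CPM in A549. Neither gene overlapped between the lines, and the log2 differences were 1.41 ± 0.26 for SARS1 and −1.13 ± 0.22 for SARS2, with edgeR adjusted p of 6.90e-05 and 0.000162. The isoleucyl pair moved together: IARS1 (ENSG00000196305) had 367, 281 and 378 CPM in H460, against 142, 142 and 180 CPM in A549, and IARS2 (ENSG00000067704) had 297, 321 and 348 CPM, against 128, 131 and 155 CPM. Their log2 differences were 1.14 ± 0.25 and 1.22 ± 0.19, with edgeR adjusted p of 0.000443 and 6.40e-06. MARS2 had 21.8, 22.4 and 22.1 CPM in H460, against 8.41, 10.1 and 9.85 CPM in A549, without overlap, and its log2 difference was 1.22 ± 0.24 with an adjusted p of 0.000129.

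Of the genes with special roles, EPRS1 was higher in H460 by 1.10 ± 0.29 log2 with an edgeR adjusted p of 0.00276. The dual-compartment genes lay at 0.60 ± 0.26 for GARS1 and −0.01 ± 0.14 for KARS1, and neither was called in the reported fit. GARS1 was called higher in H460 with the replicate number as a block, with no filter and with only the groups compared. It was also called without the libraries that stood apart, but not with DESeq2 or RLE scaling. Among 25 genes of the ATF4 pathway, 13 were higher and 4 lower in H460 than in A549. The scaffold genes AIMP1, AIMP2 and EEF1E1 lay at 0.09 ± 0.16, 0.12 ± 0.20 and 0.25 ± 0.18 log2.

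**Figure D3:**
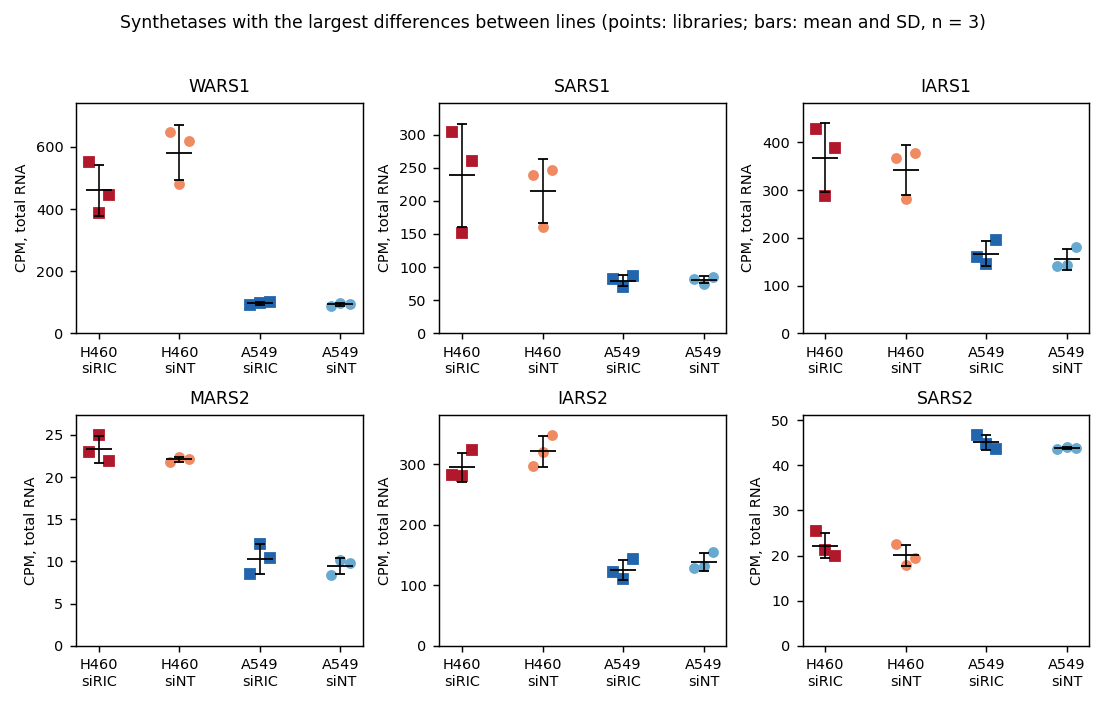
CPM in total RNA (vertical axis, from 0) of the 6 synthetases with the largest called differences between lines, in H460 siRIC, H460 siNT, A549 siRIC and A549 siNT cells. Points are libraries and bars mean and SD (n = 3); SARS2 is lower in H460, and the other genes are higher, without overlap between lines.

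The histidyl genes HARS1 and HARS2 lie head to head on chromosome 5 and were higher together in H460, by 0.57 ± 0.15 and 0.52 ± 0.13 log2 with edgeR adjusted p of 0.00210 and 0.00126. HARS1 had 109, 105 and 97.8 CPM in H460 siNT total RNA, against 72.0, 73.1 and 64.8 CPM in A549, and HARS2 had 44.4, 40.6 and 41.5 CPM, against 28.9, 29.6 and 29.6 CPM. Neither overlapped between lines. In polysomal against total RNA they lay at 0.89 and 0.42 in H460 siRIC, 0.89 and 0.43 in H460 siNT, 0.59 and 0.19 in A549 siRIC and 0.74 and 0.51 in A549 siNT cells. The 84 bases between their RefSeq transcript starts (GRCh38.p14, plus strand, chr5:140691371-140691454, 59.5% G or C) are shown because they are the whole stretch that separates the pair, with HARS1 leaving to the left and HARS2 to the right.
HARS1 to HARS2: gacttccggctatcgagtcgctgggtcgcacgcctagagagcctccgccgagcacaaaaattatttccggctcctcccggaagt
The proteins are close paralogs and the sources used here do not state the strand setting of the counting, so reads could be divided between the genes and their values are uncertain to that extent.

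Replicates of H460 total RNA differed in a way that touched the cytosolic but seldom the mitochondrial enzymes. Replicate 2 was the lowest of the 3 libraries with siRIC and with siNT for 12 of 19 cytosolic enzymes (AARS1, CARS1, EPRS1, GARS1, IARS1, LARS1, MARS1, NARS1, SARS1, TARS1, WARS1 and YARS1) and for 2 of 16 mitochondrial ones (HARS2 and PARS2), where 19.7% of all genes did so. This pattern was picked out after the values had been seen and is given as a description with no test. AARS1, the alanyl-tRNA synthetase, had 274, 147 and 236 CPM in replicates 1, 2 and 3 with siRIC and 218, 151 and 235 CPM with siNT. CARS1, the cysteinyl-tRNA synthetase, had 99.1, 47.7 and 88.6 CPM with siRIC and 77.7, 49.1 and 80.6 CPM with siNT. Replicate 2 was below both other libraries in each, and of all cytosolic enzymes CARS1 had the lowest replicate 2 value relative to the mean of the others, at −0.97 log2 with siRIC and −0.69 with siNT. The median of this difference was −0.30 with siRIC and −0.21 with siNT for the cytosolic enzymes, 0.01 and 0.00 for the mitochondrial enzymes and 0.00 for all genes.

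Genes of the ATF4 pathway moved with it. Of 25, 22 were lowest in replicate 2 of H460 total RNA with both siRNAs, all except SLC7A11, SLC3A2 and SLC7A5. Asparagine synthetase, ASNS, had 311, 138 and 223 CPM with siRIC and 228, 131 and 208 CPM with siNT, and CHAC1 had 39.9, 15.1 and 33.9 CPM with siRIC and 35.5, 11.9 and 35.5 CPM with siNT. Their part in the synthetase pattern was not tested. In H460 polysomal RNA, replicate 2 was lowest with both siRNAs for 12 of 19 cytosolic and 0 of 16 mitochondrial enzymes, against 19.8% of all genes. The library names carry other numbers, 4, 6 and 7 for replicates 1, 2 and 3 of H460 and 3, 4 and 6 for those of A549, and what these mark is not stated. Replicate 2 of H460 thus shares its number 6 with replicate 3 of A549. In A549 total RNA, replicate 2 was lowest with both siRNAs for 9 of 19 cytosolic and 5 of 16 mitochondrial enzymes (23.1% of all genes), and replicate 3 was lowest for 0 of 19 and 1 of 16 (21.7%) and highest for 12 of 19 and 5 of 16 (24.5%).

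**Figure D4:**
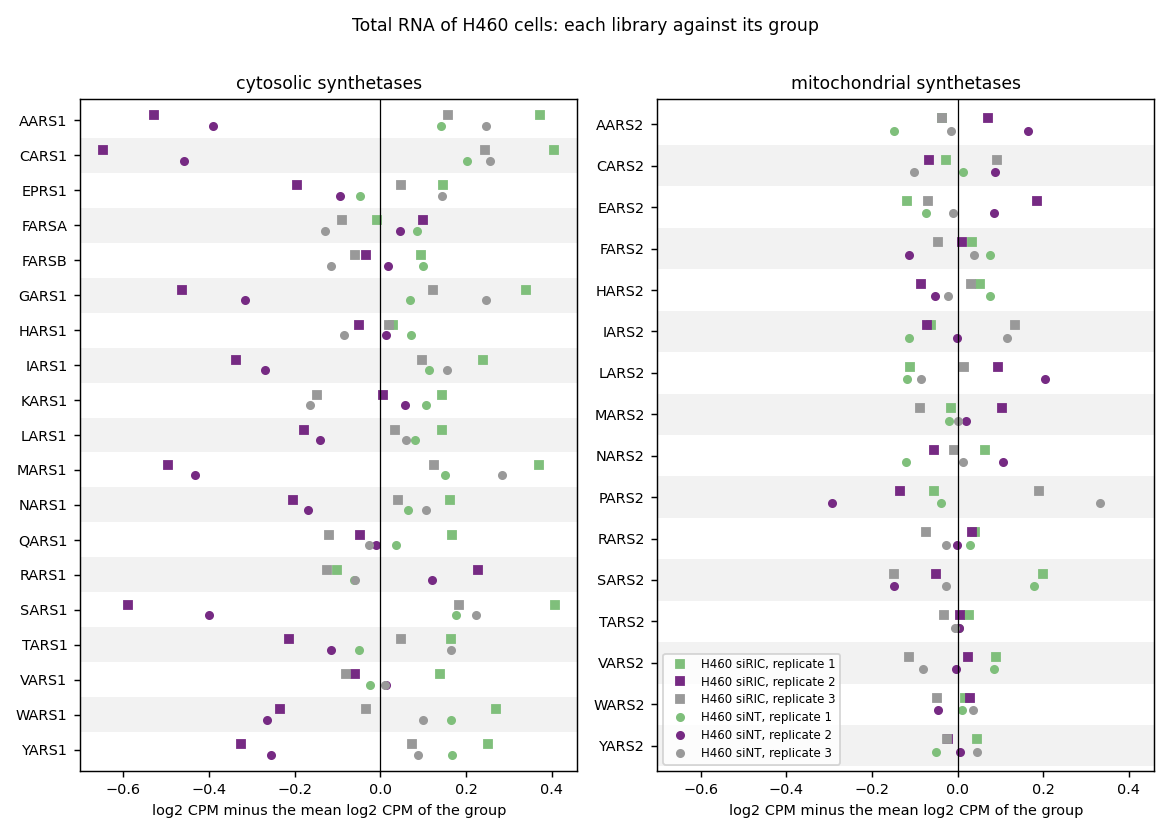
Log2 CPM of each H460 total RNA library minus the mean of its group (horizontal axis) for the cytosolic (left) and mitochondrial (right) synthetases, squares for siRIC and circles for siNT, replicate 1 in green, 2 in purple and 3 in grey. Replicate 2 is lowest with both siRNAs for 12 of 19 cytosolic and 2 of 16 mitochondrial enzymes.

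The promoters of the synthetases were searched for TGATGNAA, a form of the composite site bound by ATF4 with C/EBP factors, on both strands of the RefSeq window from 250 bases before to 50 bases after each transcript start. The only other motif searched was CCAAT, on both strands, which is in 34.6% of all windows and is not among the letters between HARS1 and HARS2 shown above. A window has 300 bases and that stretch 84, so the share of windows is not a rate for a stretch of its length. Of 30 synthetases with a window, 8 held TGATGNAA: 7 of 16 cytosolic and 1 of 14 mitochondrial genes, against 4.46% of 27305 genes, 3.62% of 35116 windows and 6 of 19 ATF4 pathway genes. LARS1, VARS1, YARS1, AARS2 and VARS2 had no window. All 7 cytosolic genes with the motif were among those lowest in replicate 2 of H460 total RNA, as were 3 of the 9 cytosolic genes with a window and no motif (EPRS1, SARS1 and WARS1); the mitochondrial gene with the motif, YARS2, was not. A match of letters is a description of the window and does not show that a factor binds there. The matches are shown, each in 30 bases of the gene's own strand read 5′ to 3′ with the motif in capitals, because they are the 8 synthetase promoters with a match and include 7 of the 12 cytosolic genes lowest in replicate 2. The relation of the motif to that pattern was not tested.
AARS1: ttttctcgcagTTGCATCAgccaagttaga
CARS1: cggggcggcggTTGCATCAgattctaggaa
GARS1: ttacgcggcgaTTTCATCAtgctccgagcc
IARS1: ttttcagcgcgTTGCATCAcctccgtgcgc
MARS1: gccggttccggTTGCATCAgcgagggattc
NARS1: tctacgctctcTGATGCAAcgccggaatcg
TARS1: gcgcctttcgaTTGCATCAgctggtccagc
YARS2: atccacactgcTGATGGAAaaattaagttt
The motif reads on the gene's strand in NARS1 and YARS2 and on the opposite strand in the others. Counted from 1 at the transcript start, with −1 the base before it, it spans −187 to −180 in AARS1, −2 to 6 in CARS1, −33 to −26 in GARS1, −13 to −6 in IARS1, −4 to 4 in MARS1, 15 to 22 in NARS1, 3 to 10 in TARS1 and −197 to −190 in YARS2. On GRCh38.p14 the stretches lie at chr16:70289675-70289704 (AARS1, minus strand), chr11:3057407-3057436 (CARS1, minus), chr7:30594834-30594863 (GARS1, plus), chr9:92293692-92293721 (IARS1, minus), chr12:57488053-57488082 (MARS1, plus), chr18:57621804-57621833 (NARS1, minus), chr5:33440956-33440985 (TARS1, plus) and chr12:32756076-32756105 (YARS2, minus).

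The libraries that stood apart in H460 polysomal RNA were high for some synthetases and low for others. Replicate 3 was the highest with both siRNAs for 6 cytosolic (EPRS1, GARS1, IARS1, LARS1, NARS1 and TARS1) and 6 mitochondrial enzymes (HARS2, IARS2, MARS2, NARS2, RARS2 and WARS2), and 32.2% of all genes did so. It was the lowest for 5 of 19 cytosolic (FARSA, FARSB, HARS1, QARS1 and VARS1) and 9 of 16 mitochondrial enzymes, and for 33.8% of all genes; the difference between the compartments was not tested. IARS2 had 412, 399 and 573 CPM in H460 siRIC and 445, 452 and 664 CPM in H460 siNT polysomal RNA, while VARS1 had 422, 324 and 212 CPM and 303, 353 and 184 CPM. Replicate 3 was thus high for IARS2 and low for VARS1 with either siRNA.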

How the data were processed

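Total RNA and RNA from polysomal fractions of H460 and A549 cells were sequenced in 24 libraries. Per the labels' protocols, RNA was isolated with TriPure and libraries were prepared by a strand-specific protocol after depletion of ribosomal RNA, while the labels name the molecule as polyA RNA, so which RNA entered the libraries is uncertain. The authors deposited a single merged table of estimated counts per gene (expected counts from salmon, per the file name), not normalized, with 60666 rows, of which 60437 IDs matched a symbol. The submitters' processing notes name bcl2fastq 2.20 and GRCh38, while the annotation, salmon's version and settings, its use of strand and any filter are not given in the sources used here. Of the values 95.3% lay within 0.002 of a whole number, and 0 columns belonged to other samples.

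Counts were rounded, filtered with filterByExpr by group, scaled by TMM and tested by the quasi-likelihood functions glmQLFit and glmQLFTest of edgeR 4.0.16 (R 4.3.3), with Benjamini-Hochberg adjustment over all genes tested and a threshold of 0.05. Each line was fitted with its 12 libraries (8 residual degrees of freedom), and both lines with 24 (16 degrees), over 14 comparisons; changes of the polysomal-to-total ratio were interaction terms. The SE is the absolute log2 difference divided by the square root of F, and intervals are 95%. CPM were scaled by TMM over 16507 genes, except for the cell type markers, which are relative to library totals. Ratios of paired libraries used log2 CPM with a prior count of 2. The A549 fit and the fit of both lines were tested on simulated data, and the H460 fit was not. The simulated libraries had the same variability for all genes, no effect of replicate and no library that stood apart.

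The sample titles give a replicate number, and equal numbers were taken to pair samples within a line. Deviations from group means correlated with r from 0.279 to 0.941 between equal numbers in H460 and from 0.126 to 0.717 in A549, against −0.824 to 0.365 and −0.703 to 0.152 between different numbers. The reported fits have no block, and the fit with it was an alternative, beside DESeq2 1.42.0, RLE scaling, no filter, only the groups compared, no libraries that stand apart and each library left out. Replicates differed by more than sampling noise (chi-square per degree of freedom from 9.42 to 200). The labels do not say that replicates were separate cultures, so the spread behind a p-value is that between these samples and may be technical.

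The members, the gene lists and the naming rule were chosen with earlier results of these data known. In each siRIC comparison the rule took the 3 members with the smallest p; in polysomal against total RNA of siNT cells the 3 cytosolic and 3 mitochondrial members with the largest difference; between lines the 6 called members with the largest difference; and always GARS1, KARS1, EPRS1, HARS1 and HARS2. Other members were named after their values had been seen. Levels were not compared between genes, and their relation to coding length was not analysed, since no lengths were used here. Promoter windows, gene positions and symbols came from RefSeq tables (GRCh38.p14).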

Additional observations from a re-analysis of the deposited data

How the results depend on the processing

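The sign of the log2 difference was checked for the synthetases that the naming rule took in each comparison. None of these that was called in the reported fit or the alternative changed sign. Over all alternatives, 324 counts and medians stayed within 1.5 times the reported count or 1 SD of the reported median, and 22 moved further. With the replicate number as a block, which pairs the samples of a line, the synthetases called between polysomal and total RNA were 21 in H460 siRIC and 22 in H460 siNT cells, in place of 11 and 12; the block changed no other count of synthetases by over 1.5 times. Over all genes the block raised the calls for siRIC against siNT to 540 in A549 polysomal and 258 in A549 total RNA, in place of 104 and 50, and those between polysomal and total RNA to 5350 in H460 siRIC and 5187 in H460 siNT cells, in place of 3456 and 3347. Without the libraries that stood apart these counts were 19 and 19, 1 synthetase (VARS1) was called in A549 polysomal RNA with siRIC against siNT, and 2 were called for the ratio difference between lines. With only the groups compared in the fit, 8 were called in A549 siRIC cells in place of 14. With no scaling beyond the library total, the mean median ratio in H460 siRIC and siNT cells was 0.391 and 0.427 for cytosolic and 0.232 and 0.243 for mitochondrial enzymes, while the median of all genes moved to −0.17 and −0.18, so that the cytosolic medians lay 0.56 and 0.61 above it, against 0.57 and 0.61 with TMM. Leaving out each library gave 4 to 18 calls in H460 siRIC, 5 to 14 in H460 siNT, 7 to 18 in A549 siRIC and 15 to 25 in A549 siNT cells for polysomal against total RNA, 16 to 19 between lines in total RNA, and 0 to 1 for siRIC against siNT in A549 polysomal RNA. The causes of these shifts were not tested. PARS2, at 2.49 to 9.80 CPM, had an SE of 0.251 in H460 siRIC polysomal against total RNA and CARS1 the largest, 0.322; how far depth limits the tests was not examined.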
